A study of Drosophila melanogaster with 12 samples.

Results

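The telomeric ends of the chromosome arms 2L, 3L and 3R of *Drosophila melanogaster* were examined for contacts between homologs and for contacts with each other in haplotype-resolved Hi-C. Each end was the outermost 1 Mb of the arm in the dm3 assembly, chr2L:1-1000000, chr3L:1-1000000 and chr3R:26905054-27905053, taken on the maternal and on the paternal homolog. In bins of 4 kb this gave 250 bins per end and homolog, 1500 bins in all, of the 48306 bins of both homologs of the 4 large autosomal arms. The members are defined by position alone, but they were chosen with earlier results on these data known. The study itself had reported clustering of sub-telomeric regions.

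Hi-C was carried out on PnM cells, a clonal male line derived from embryos of DGRP-057 mothers and DGRP-439 fathers, so that sequence differences between the inbred strains tell the maternal homolog from the paternal one. The 8 libraries were 2 replicates each of untreated cells, of mock cells transfected by calcium phosphate with deionized water in place of dsRNA, and of cells that received 30 µg of dsRNA against Slmb (Slmb RNAi) or against Top2 (Top2 RNAi) on the first and the third day. Transfected cells were harvested on the fourth day, and all cells were fixed with 1% formaldehyde for 10 min and digested with DpnII. All groups are thus of 1 line and 1 genotype. The study's methods call the 2 replicates of each treatment biological, whereas the labels name no separate cultures, and p-values measure the spread between these libraries. Slmb is the F-box subunit of an SCF ubiquitin ligase and Top2 is the topoisomerase that passes one DNA duplex through another, and both are known in *Drosophila* cells as factors on which somatic pairing of homologs depends.

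*Drosophila* chromosome ends carry no telomerase repeats. They are maintained by arrays of the retrotransposons HeT-A, TART and TAHRE, below which lie satellite-like telomere-associated sequences and then the first genes of the arm. In many nuclei of the fly the arms lie in the Rabl orientation, with centromeres at one pole and telomeres at the other, and homologs are paired along their length in somatic cells, so that an end can meet its own homolog as well as the ends of other arms.

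Each library lists read pairs whose 2 sides were each assigned to a homolog. A pair is *cis* when both sides lie on the same homolog, *thom* (trans-homolog) when they lie on the maternal and the paternal homolog of the same arm, and *thet* (trans-heterolog) when they lie on different chromosomes. The libraries held 22634941 and 23313206 pairs within and between the autosomal arms in untreated cells, 6688455 and 7308522 in mock, 6851091 and 6179060 in Slmb RNAi, and 6913911 and 6903600 in Top2 RNAi. Replicates differed beyond counting noise most in Top2 RNAi (chi-square over degrees of freedom 1.70 over counts along the arms). They did so less in untreated cells (1.23), and little or not in mock (1.01) and Slmb RNAi (1.06). Top2 RNAi replicate 2 had the lowest share of *thet* pairs, 4.27% against 5.02 to 6.05% in the other libraries. The sequencing lanes of the conditions differed, so that lane and condition cannot be told apart.

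The ends were not evenly covered, and this sets how much can be read from their outermost parts. In untreated cells the outermost 300 kb held 4.50% of the arm's mean number of pair sides per 100 kb at 3L, 21.2% at 2L and 72.8% at 3R, whereas the inner 700 kb held 120%, 94.3% and 112%. The low stretch was present in the other conditions too, with 4.66% at 3L and 21.9% at 2L in mock. In the RefSeq annotation of the Release 6 assembly, whose coordinates are not those of dm3 and are not printed here, the outermost genes of 2L are, from the telomere inward, l(2)gl (the polarity regulator lethal giant larvae), Ir21a, Cda5, dbr and galectin. Those of 3L are mthl8, CG43149, Lsp1gamma (a larval serum protein), CG13405 and CG12483, and those of 3R are Map205 (a microtubule-associated protein), mod (modulo), krz (the arrestin kurtz), Pos and heph. The files hold positions and no genes, so no value below belongs to a single gene.

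**Figure D1:**
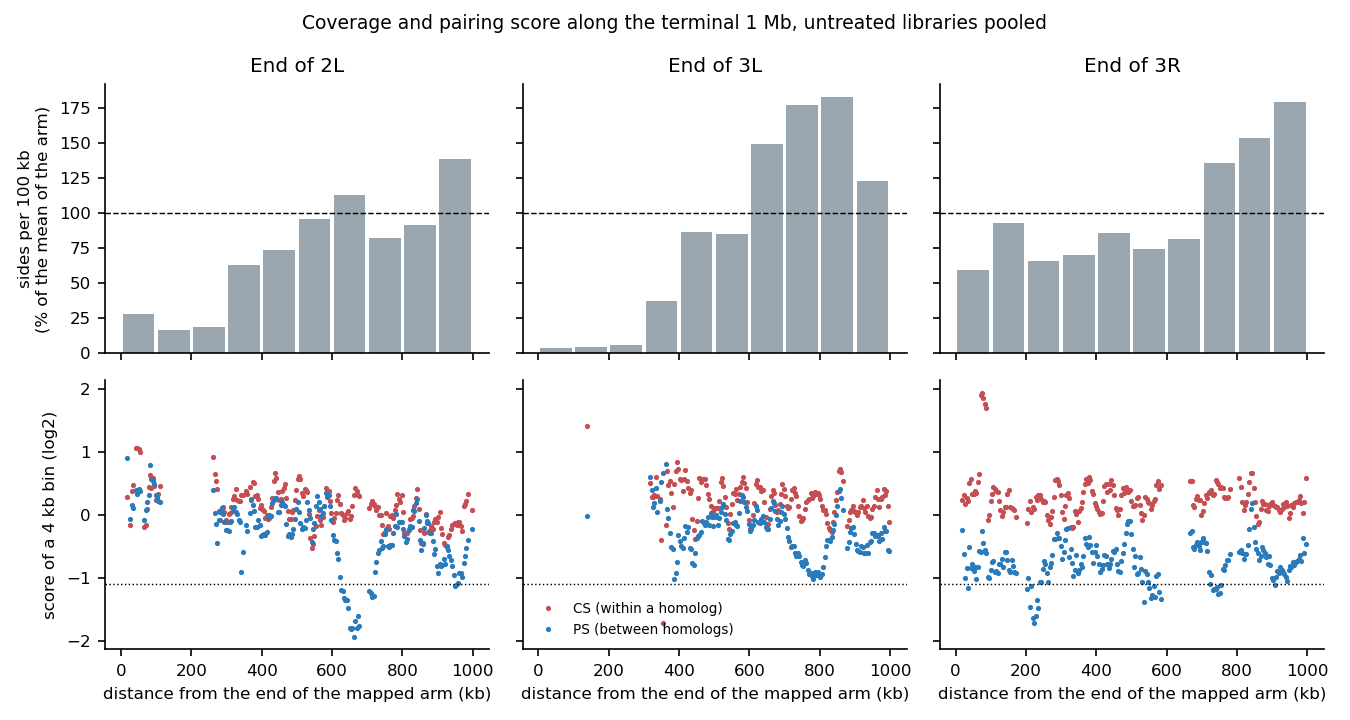
Pair sides per 100 kb as a percentage of the mean of the arm (top) and PS and CS of 4 kb bins (bottom, log2 scale) against the distance from the chromosome end in kb, for the ends of 2L, 3L and 3R in pooled untreated cells. The outermost 300 kb of 3L hold 4.50% of the arm's mean and almost no scored bin, and PS drops around 660 kb on 2L while CS stays level.

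Sides on the maternal and the paternal homolog were balanced at the ends of 2L and 3L, with a maternal over paternal ratio of 0.979 to 1.02 in the 8 libraries. At the end of 3R the ratio was 1.53 and 1.54 in untreated cells, 1.63 and 1.64 in mock, 1.70 and 1.71 in Slmb RNAi, and 1.68 and 1.56 in Top2 RNAi. The rest of 3R had 1.47 to 1.67. The study describes maternal disomy of most of 3R in a part of the cells, in which a maternal copy has taken the place of the paternal one, so that these cells hold no paternal homolog to pair there. The part of this imbalance in the *thom*/*cis* ratios of 3R was not tested, and the 3R end is compared below with the rest of its own arm. That rest also holds the windows nearest the centromere, which lie outside the disomic stretch that the study describes.

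*Thom* pairs were counted against *cis* pairs with both sides in the same 1 Mb window, for the end and for the other 1 Mb windows of the arm. At separations of 10–100 kb the end of 2L had *thom*/*cis* ratios of 0.776 and 0.770 in untreated cells, 0.794 and 0.804 in mock, 0.786 and 0.751 in Slmb RNAi, and 0.717 and 0.721 in Top2 RNAi. At the end of 3L they were 0.817 and 0.809, 0.788 and 0.796, 0.743 and 0.765, and 0.661 and 0.730, in the same order. The end of 3R had 0.559 and 0.545, 0.519 and 0.515, 0.457 and 0.470, and 0.443 and 0.475. Both Top2 RNAi libraries lay below all other libraries at 2L and 3L, and both knockdowns lay below mock and untreated cells at 3R.

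The ends were then set against the rest of their arms. The rest had 0.805 (mean of 2 untreated libraries) at 2L, where the end had 0.773 ± 0.00428 (SD, n = 2), 0.801 at 3L against 0.813 ± 0.00536, and 0.560 at 3R against 0.552 ± 0.0098. Over the 8 libraries, the mean log2 difference between end and rest of the arm in 3 ranges of separation (1–10 kb, 10–100 kb and 100 kb–1 Mb) lay between −0.052 and 0.016 for all 9 combinations of end and range. The largest was that of 3R at 100 kb–1 Mb, −0.052 ± 0.054 (SD), with the end higher in 2 of 8 libraries (exact two-sided sign-flip permutation test, p = 0.0469, adjusted p = 0.211 over 9 tests). At 1–10 kb the 3R end was also higher in 2 of 8 libraries, with a mean of −0.041 (exact p = 0.0312, adjusted p = 0.211). None of the 9 passed the adjusted threshold of 0.05, in a design whose smallest possible p is 0.00781.

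Among the 1 Mb windows of its own arm each end ranked in the lower part in untreated cells. In the pooled libraries at 10–100 kb the end of 2L ranked 16 of 23 windows from the highest, in an arm whose windows ran from 0.436 to 0.883 with a median of 0.827. The end of 3L ranked 14 of 22, with a range of 0.681 to 0.945, and that of 3R ranked 19 of 27, with a range of 0.474 to 0.773. At 100 kb–1 Mb the ranks were 19 of 23 for 2L, 14 of 22 for 3L and 22 of 26 for 3R. The ranks at this separation varied between conditions, from 8 (mock) to 19 at 2L, from 3 (Slmb RNAi) to 17 (mock) at 3L, and from 11 (Slmb RNAi) to 25 (Top2 RNAi) at 3R, and they had no test.

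The ends were also compared with each other within each library. At 10–100 kb the end of 2L exceeded that of 3R by 0.62 ± 0.10 on the log2 scale (SD, n = 8 libraries, higher in 8 of 8) and the end of 3L exceeded it by 0.62 ± 0.06 (8 of 8; exact sign-flip permutation test, p = 0.00781 for both, adjusted p = 0.0117 over 3 tests). The ends of 2L and 3L differed by 0.0042 ± 0.068 (2L higher in 4 of 8, exact p = 0.859). The rest of 3R also lay below the rests of 2L and 3L, with means over the 8 libraries of 0.502, 0.773 and 0.760. The ends had 0.498, 0.765 and 0.764, so that the lower ratio of 3R ran along the arm and was not particular to its end. With the geometric mean of maternal and paternal *cis* pairs in place of their sum, the 3R end had 0.594 and 0.580 in untreated cells, below 0.776 and 0.770 at 2L.

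From 1 kb to 100 kb *thom*/*cis* was higher at larger separations at all 3 ends. In pooled untreated cells the ratio at the end of 2L was 0.549 at 1 kb (476 *thom* and 867 *cis* pairs), 0.693 at 10 kb and 0.907 at 100 kb, each the start of a range with 8 ranges per order of magnitude. The end of 3L had 0.567, 0.735 and 0.921, and that of 3R had 0.408, 0.492 and 0.632. Beyond that the ratio did not go on rising. The end of 2L had 0.969 in the range from 237138 bp and 0.878 in that from 562342 bp (331 *thom* and 377 *cis* pairs), and the end of 3L had 0.907 and 0.873. The end of 3R had 0.659 and 0.551 in the same ranges and 0.535 in the last (153 *thom* and 286 *cis* pairs).

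**Figure D2:**
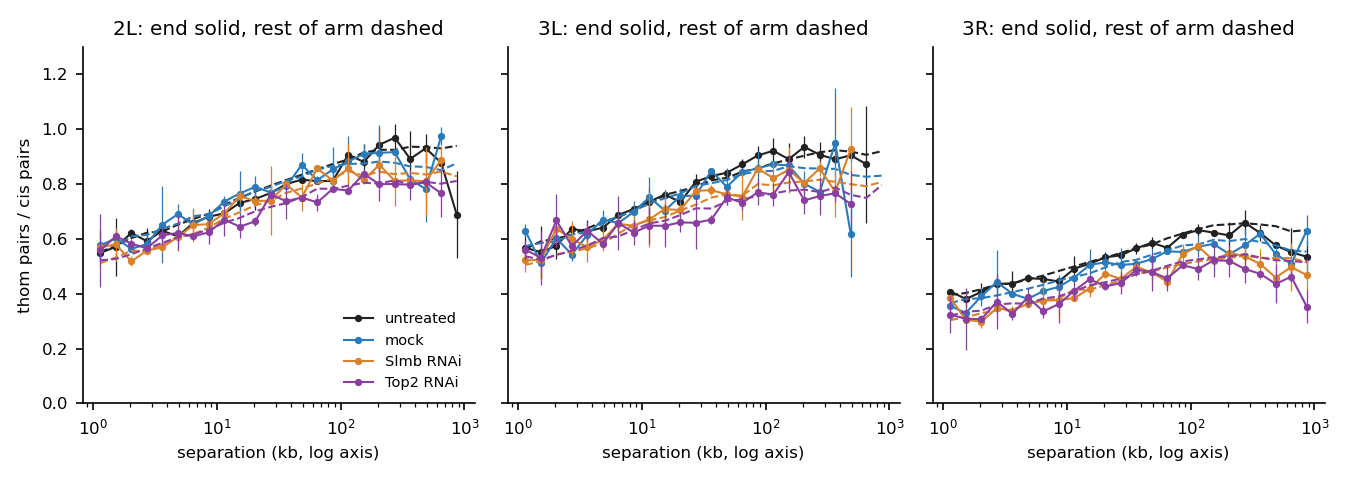
*Thom* over *cis* pairs against genomic separation in kb (log axis) at the ends of 2L, 3L and 3R (points and solid lines) and in the rest of the arm (dashed). Values are ratios of the pooled replicates in each of 4 conditions, with bars of 1 SD of the 2 replicates at the ends. Ranges with under 100 *cis* pairs in a condition are not drawn. In untreated cells the end of 3R lies below those of 2L and 3L at 1, 10 and 100 kb, at 0.408, 0.492 and 0.632.

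A contact frequency per pair of loci gives a further measure, the separation at which *cis* contacts are as frequent as *thom* contacts at 1 kb. It depends on how *cis* contacts decay with separation as well as on *thom*/*cis*, so that a shorter separation need not go with a higher ratio. In untreated cells, *thom* contacts at 1 kb at the end of 2L were as frequent as *cis* contacts at 8.57 kb (8.30 and 8.94 kb in the replicates), against 8.23 kb in the rest of the arm. The end of 3L had 6.71 kb (7.59 and 6.17) against 7.88 kb, and the end of 3R 16.03 kb (15.95 and 16.13) against 15.4 kb. The SDs of the replicates were 0.455, 1.00 and 0.125 kb at the ends and 0.410, 0.0687 and 1.01 kb in the arms, so that the end and its arm differed by less than the summed SDs at 2L and 3R and by slightly more at 3L. In mock the end of 3L had 4.72 ± 0.287 kb against 6.08 ± 0.555 kb in its arm, and in Top2 RNAi 5.56 ± 0.0534 against 7.31 ± 0.939 kb. The end of 2L was below its arm in both knockdowns, at 5.20 ± 0.78 against 7.04 ± 0.297 kb in Slmb RNAi and 5.88 ± 0.684 against 7.50 ± 0.464 kb in Top2 RNAi. The end of 3R was lower in Slmb RNAi, at 11.1 ± 0.899 against 15.96 ± 0.931 kb. These differences exceeded the summed SDs and had no test, and those of the remaining combinations did not exceed them. They rest on SDs of 2 values and on the *thom* pairs of a single range at 1 kb. In Slmb RNAi *thom*/*cis* at 1–10 kb was 0.355 at the 3R end and 0.354 in the rest of the arm. In mock the 3R end had a higher ratio, 0.399, and a longer separation, 15.5 kb. In these counts an excess of inward-facing *thom* pairs under 1 kb, which estimates unligated fragments assigned to the wrong homolog, amounted to 0.803% of the *thom* pairs of the end of 2L, 0.488% at 3L and 0.857% at 3R.

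Beyond 1 Mb, *thom* and *cis* contacts between the end and the rest of its own arm were set against those between other windows of the arm, as a description. At 10–20 Mb the 3R end had a *thom*/*cis* ratio of 0.646 and 0.652 in the replicates of untreated cells, where the rest of 3R had 0.704. The ratio of the 3R end was below that of the rest in 8 of 8 libraries, with a mean log2 difference of −0.12, and it was lower in 7 of 8 at 2–5 Mb and at 5–10 Mb. At these separations the partners of the 3R end lie within the disomic stretch, whereas the rest of 3R also holds contacts outside it. The part of this in the difference was not tested. The ends of 2L and 3L showed no such order at 10–20 Mb, being higher than the rest in 4 and in 2 of 8 libraries.

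Pairing was then followed bin by bin. The pairing score (PS) of a 4 kb bin is the log2 of the average balanced *thom* contact within 12 kb on either side of the bin, and the *cis* score (CS) does the same for *cis* contacts. Both are set against the median CS over the map. Of the 250 bins of an end, 195 could be scored at 2L, 168 at 3L and 212 at 3R in pooled untreated cells. At 3L, 1 scored bin lay in the outermost 300 kb.

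The median PS of the pooled map was −0.19 ± 0.01 at the end of 2L, −0.25 ± 0.02 at 3L and −0.76 ± 0.01 at 3R. In the rest of the arms it was −0.52, −0.45 and −0.74. Each SD is of the 2 replicates balanced alone. These had −0.218 and −0.198 at 2L, −0.255 and −0.288 at 3L, and −0.741 and −0.755 at 3R, and the pooled values lay outside them. Each library scored alone gave a higher median PS at the end than in the rest of the arm in 8 of 8 libraries at all 3 ends, and CS too was higher at the ends in 8 of 8. Their difference, PS − CS, was higher at the end in 7 of 8 libraries at 2L, 4 of 8 at 3L and 3 of 8 at 3R. At 3R the difference in PS was slight in untreated cells, at −0.741 against −0.748 and −0.755 against −0.757 in the replicates, and the pooled map had the opposite order. Bins with few reads receive large weights in balancing, and the part of low coverage in this level was not tested. With unbalanced counts the medians of the ends were −0.87, −0.58 and −0.91.

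The end of 3R had the lowest median PS of the 3 ends in all conditions, as did the rest of 3R among the rests of these arms. The median PS of the pooled maps at 2L was −0.33 ± 0.07 in mock, −0.35 ± 0.05 in Slmb RNAi and −0.43 ± 0.07 in Top2 RNAi, with SDs of the replicates balanced alone. At 3L it was −0.21 ± 0.07, −0.28 ± 0.02 and −0.38 ± 0.12, and at 3R −0.76 ± 0.02, −0.90 ± 0.02 and −0.93 ± 0.10. Both knockdowns differed from mock by more than the summed SDs at 3R and by less at 2L and 3L. The fall was not particular to the ends. In the pooled maps the rest of 3R had −0.84 in mock, −1.06 in Slmb RNAi and −1.03 in Top2 RNAi. The rest of 2L had −0.56, −0.67 and −0.71, and that of 3L −0.49, −0.63 and −0.65. These medians were not tested.

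Tight and loose pairing were told apart by the PS at which 2 Gaussians fitted to all autosomal bins cross, −1.09, with component means of −1.40 and −0.43. Under this threshold lay 10.3% of the scored bins at the end of 2L, none of 168 at 3L and 12.3% at 3R. In the rest of the arms it was 21.8%, 15.4% and 27.1%. The shares had no test, since neighbouring bins share pixels.

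The longest run of bins under the threshold lay on 2L. This run, chr2L:624001-680000, covered 56 kb with a median PS of −1.64 (−1.61 and −1.67 in the replicates) and a CS of 0.05, so that *thom* contacts were low there while *cis* contacts were at the level of the map. The lowest bin, chr2L:660001-664000, had a PS of −1.93 and a CS of 0.31. The highest bin, chr2L:16001-20000, lay near the tip, with a PS of 0.90 (1.17 and 0.56 in the replicates).

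At 3L no run of bins fell under the threshold. Its lowest bin, chr3L:780001-784000, had a PS of −1.01, and its highest, chr3L:360001-364000, had 0.81 with replicates of 1.16 and 0.20. At 3R the longest run was chr3R:27148001-27176000, 28 kb with a median PS of −1.17. The lowest bin of 3R, chr3R:27680001-27684000, had −1.71, with replicates far apart at −2.35 and −1.36, and the highest, chr3R:27060001-27064000, had 0.20.

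The same picture came from unbalanced counts in windows of 100 kb, with *thom* over *cis* pairs of at least 1 kb separation. In pooled untreated cells the window at 600–700 kb from the tip of 2L had 0.462 (3916 *thom* and 8471 *cis* pairs), the lowest of the 10 windows of that end, between 0.813 at 500–600 kb and 0.657 at 700–800 kb. Its replicates were 0.452 and 0.472, below 0.581 and 0.544 in mock, 0.565 and 0.518 in Slmb RNAi, and 0.509 and 0.541 in Top2 RNAi. At 3L the window at 700–800 kb had 0.571, between 0.851 and 0.799 in its neighbours. The 3 outermost windows of 3L held 16, 22 and 59 *thom* pairs in untreated cells, too few to rank.

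Whether depletion of Slmb or Top2 changed pairing within the ends was tested with limma on the log2 *thom*/*cis* ratio of 938 windows of 100 kb, 30 of them in the ends. For Slmb RNAi against mock, 0 of the 30 windows were called at an adjusted p of 0.05, as were 0 of all 938 (0%), and 2 of the 30 had an unadjusted p under 0.05 (226 of 938). For Top2 RNAi against mock the counts were 0 of 30 and 0 of 938 (0%), with 6 of 30 and 204 of 938 at an unadjusted p under 0.05. For mock against untreated cells they were 0 of 30 and 0 of 938 (0%), with 6 of 30 and 195 of 938.

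The direction of the changes was mostly downward, at the ends as elsewhere. The median log2 change of the 30 windows was −0.11 for Slmb RNAi and −0.12 for Top2 RNAi, beside −0.14 over all 938 windows for both, and 24 and 23 of 30 windows were lower, beside 91.5% and 92.2% of all windows. All 10 windows of 3R were lower in both knockdowns, with medians of −0.15 and −0.18. At 2L 6 of 10 were lower in each, and at 3L 8 and 7 of 10. Both knockdowns share the mock libraries.

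The window with the largest change at 3R was the same for both, 400–500 kb from the end. Its *thom*/*cis* ratios were 0.527 and 0.481 in mock, 0.350 and 0.346 in Slmb RNAi, 0.359 and 0.379 in Top2 RNAi, and 0.521 and 0.503 in untreated cells. All 4 knockdown libraries lay below all 4 others. The log2 change was −0.53 ± 0.09 (SE) for Slmb RNAi and −0.45 ± 0.09 for Top2 RNAi (limma, adjusted p = 0.139 and 0.189). Among the 891 windows with at least 50 *thom* and 50 *cis* pairs in every library, of which 27 lie in the ends, limma called this window for both (adjusted p = 0.0128 and 0.0463), as 1 of 57 called windows for Slmb RNAi and 1 of 13 for Top2 RNAi. With all 8 libraries in 1 fit it was called for Slmb RNAi (adjusted p = 0.0337, 25 of 938 called).

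At 2L the largest changes were −0.13 ± 0.07 at 700–800 kb for Slmb RNAi (adjusted p = 0.255) and 0.27 ± 0.19 at 100–200 kb for Top2 RNAi (adjusted p = 0.363). The latter window had −0.36 ± 0.05 in mock against untreated cells (limma, adjusted p = 0.129, and 0.0239 among the deeper windows). How many of all deeper windows were called in that comparison is not given here, so this call is not read as a result about the end. At 3L the largest changes lay in the sparse tip, −1.18 ± 0.52 at 200–300 kb for Slmb RNAi and 0.77 ± 0.63 at 0–100 kb for Top2 RNAi, with standard errors that leave their sign unsettled. The outermost windows of 2L and 3R changed by 0.08 ± 0.10 and −0.21 ± 0.11 in Slmb RNAi and by 0.02 ± 0.10 and −0.17 ± 0.11 in Top2 RNAi, none of them called by limma (adjusted p = 0.255 to 0.891).

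**Figure D3:**
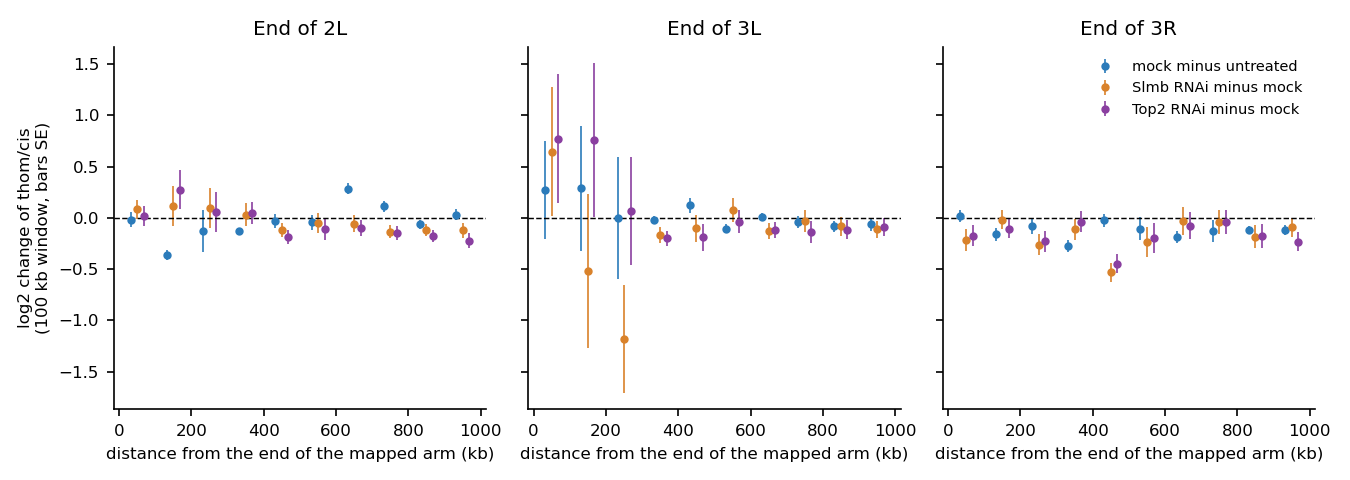
Log2 change of *thom*/*cis* in each 100 kb window of the ends of 2L, 3L and 3R against the distance from the chromosome end in kb, for Slmb RNAi against mock, Top2 RNAi against mock and mock against untreated cells, with bars of 1 SE from limma. All 10 windows of 3R lie below 0 in both knockdowns, and the window at 400–500 kb lies lowest, at −0.53 and −0.45.

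Contacts among the ends were compared with the mean of the same pair of arms. The number of pairs that joined the terminal 1 Mb of each of 2 arms, over all homolog combinations, was divided by the number that the area of the block would hold if pairs were spread evenly over both arms. The ends of 2L and 3L met at 1.26 and 1.38 times the mean in untreated cells (640 and 791 pairs), 1.68 and 1.90 in mock, 1.64 and 1.67 in Slmb RNAi, and 1.63 and 2.44 in Top2 RNAi. Those of 2L and 3R met at 1.44 and 1.54, 2.38 and 2.42, 1.76 and 2.06, and 1.90 and 3.11 times the mean, in the same order. The ends of 3L and 3R, which belong to the same chromosome and are joined through its centromere, met at 1.53 and 1.36, 2.55 and 2.42, 1.97 and 1.87, and 2.36 and 3.05 times the mean.

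All 3 pairs of ends lay above the mean of their arms in 8 of 8 libraries. The mean log2 values were 0.74 for 2L with 3L, 1.01 for 2L with 3R and 1.05 for 3L with 3R (exact two-sided sign-flip permutation test over libraries, p = 0.00781 and adjusted p = 0.00781 for each, the smallest this design can give). The lowest values were those of untreated cells throughout, and the highest those of Top2 RNAi replicate 2, the library with the fewest *thet* pairs. Between 221 and 1104 pairs of a library fell in an end block.

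A count by area takes no account of the low coverage of the tips. In the balanced maps, which divide by the coverage of each bin, the ends of 2L and 3L met at 2.11 and 2.03 times the mean in untreated cells, 3.05 and 3.67 in mock, 3.29 and 2.55 in Slmb RNAi, and 2.92 and 6.54 in Top2 RNAi. Those of 2L and 3R met at 2.03 and 2.11, 4.18 and 4.30, 2.82 and 2.97, and 3.04 and 5.51 times the mean. Those of 3L and 3R met at 2.79 and 2.19, 4.07 and 3.82, 2.86 and 2.80, and 3.10 and 4.95. In each pooled map the end block was the highest of all blocks of its pair of arms with at least 25% unmasked pixels, rank 1 of 506, 598 and 572 blocks, in all 4 conditions. By area the same blocks ranked 130 of 552, 75 of 621 and 104 of 648 in untreated cells and 28, 8 and 5 in mock.

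**Figure D4:**
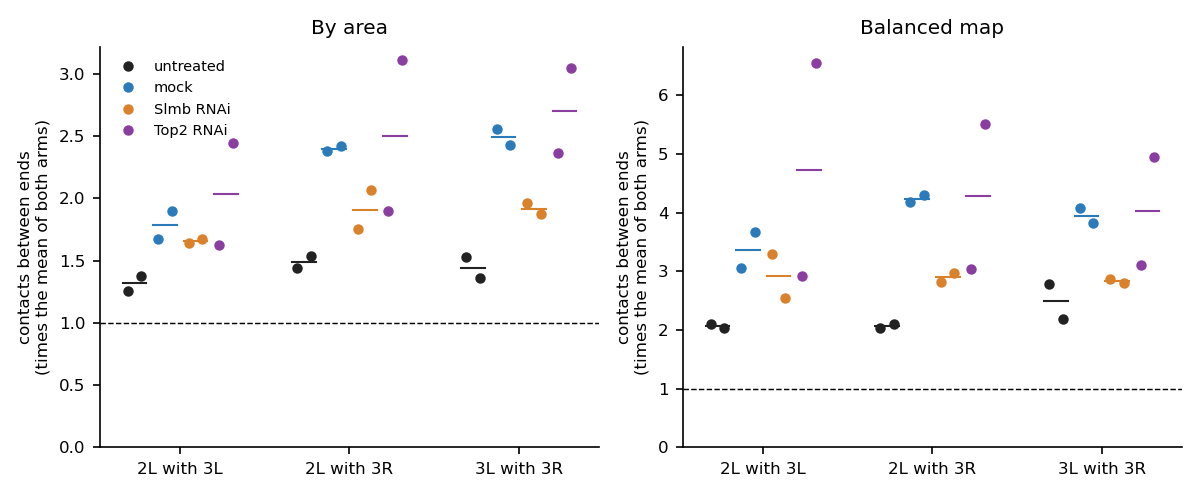
Contacts between the terminal 1 Mb of 2L and 3L, 2L and 3R, and 3L and 3R, as times the mean of the pair of arms, by area and in the balanced map, with 1 point per library in 4 conditions. A line marks the mean of the arms at 1, and every library lies above it, from 1.26 by area to 6.54 in the balanced map.

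Shorter blocks separated the measures further. In the terminal 400 kb, 2L and 3L met at 0.209 and 0.196 times the mean by area in untreated cells, from 17 and 18 pairs, whereas the balanced value was 2.21 and 1.72. In mock they met at 0.553 and 0.860 by area and 8.82 and 11.8 when balanced. By area the mean log2 value of 2L with 3L over 8 libraries turned negative in this block, −1.11 (exact sign-flip permutation test, adjusted p = 0.0352), and that of 3L with 3R was 0.32 (adjusted p = 0.141), whereas 2L with 3R remained above the mean at 1.12 (adjusted p = 0.0234). In the balanced pooled maps the 400 kb block of the ends ranked 1 in 11 of the 12 combinations of ends and condition, the exception being 2L with 3L in untreated cells at 17 of 3078.

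For 2L with 3R the balanced values rose further in shorter blocks, which held few pairs. In the terminal 200 kb 2L and 3R shared 64 pairs in untreated cells and 64 in mock, 1.503 and 4.74 times the mean by area, which the balanced maps raised to 6.21 ± 0.23 and 25.6 ± 0.34 (SD, n = 2). In the terminal 100 kb the pairs were 19 and 31, with balanced values of 7.08 ± 0.0054 and 53.0 ± 7.97. These SDs are of 2 values and leave out the counting error of so few pairs. The ends of 3L and 3R shared 10 and 4 pairs in the terminal 100 kb in untreated cells, and those of 2L and 3L shared 1 and 2, too few for a comparison.

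The outer and inner 500 kb of the ends were then set apart in the balanced maps, as a description. In untreated cells the outer parts of 3L and 3R met at 6.67 and 4.45 times the mean, the outer part of 3L met the inner part of 3R at 2.34 and 2.33, the inner part of 3L met the outer part of 3R at 2.11 and 1.67, and the inner parts met at 1.27 and 1.21. For 2L with 3R the outer parts had 3.06 and 3.51, the mixed parts 2.12 and 1.97 (outer 2L) and 1.75 and 1.62 (outer 3R), and the inner parts 1.41 and 1.54. For both pairs of ends the outer parts thus had the highest values and the inner parts the lowest. For 2L with 3L no such order stood out from the spread of the replicates, with 2.90 and 1.91 for the outer parts (120 pairs), 2.32 and 2.33 (outer 2L) and 1.76 and 2.17 (outer 3L) for the mixed parts, and 1.79 and 1.77 for the inner parts (685 pairs). In mock the outer parts of 3L and 3R reached 9.71 and 9.25 and the inner parts 1.87 and 1.66.

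Along another arm, contacts of an end were highest in the first window from that arm's telomere in all 4 conditions. From the end of 2L along 3R the balanced values in untreated cells were 2.07 in the first 1 Mb window (mean of 2 replicates), 1.51 over windows 2 to 5, 1.43 over windows 6 to 10, 1.27 over windows 11 to 20, and 1.24 over those of the 3 windows nearest the centromere that had enough unmasked pixels. In mock they were 4.24, 2.05, 1.66, 1.32 and 0.890. From the end of 3L along 3R they were 2.49, 1.253, 1.22, 1.17 and 1.202 in untreated cells and 3.94, 1.81, 1.51, 1.17 and 0.878 in mock. Along 3L the values did not fall all the way. From the end of 2L along 3L they were 2.07, 1.49, 1.21 and 1.22 in untreated cells and 1.59 in the single window near the centromere with enough unmasked pixels, and from the end of 3R along 3L they were 2.49, 1.17, 0.971, 0.961 and 1.07. In both series along 3R the first window was higher and the windows near the centromere were lower in mock than in untreated cells, by more than the spread of the replicates.

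**Figure D5:**
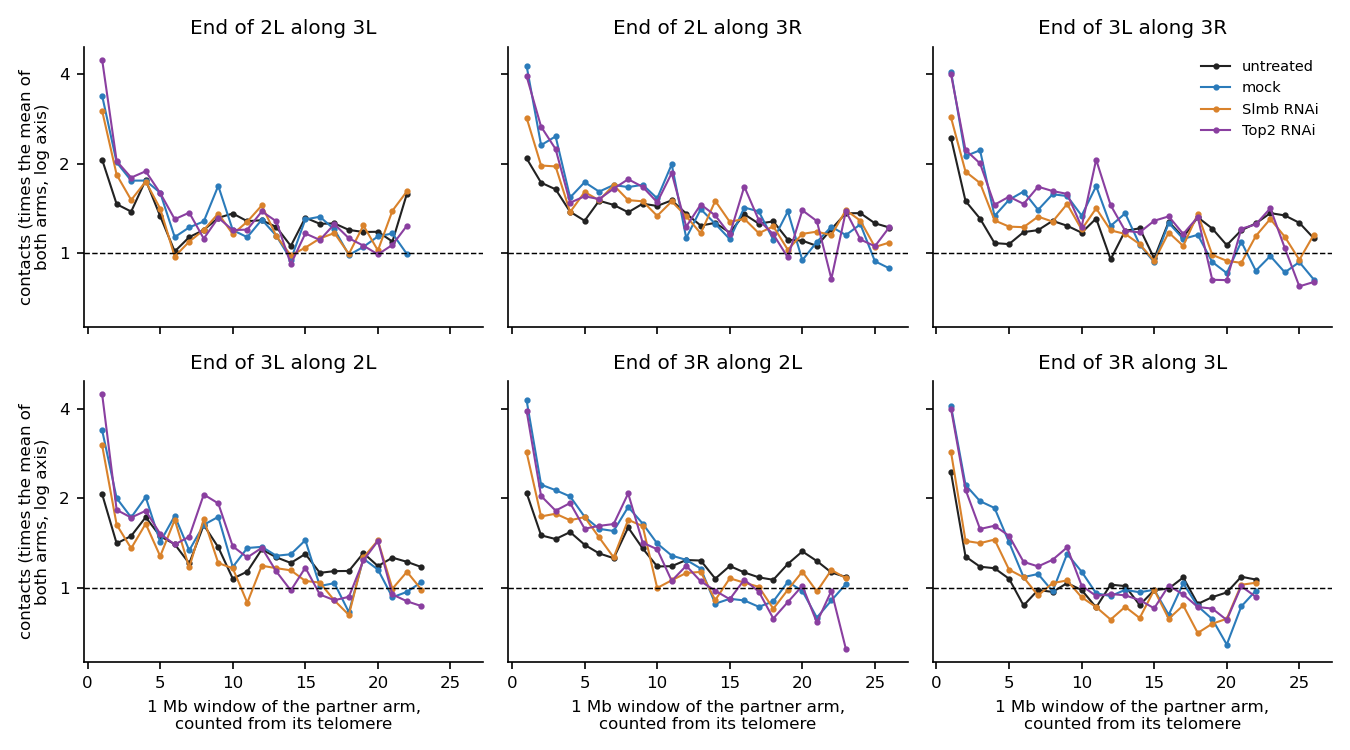
Contacts of each end (2L, 3L, 3R) with 1 Mb windows of the other arms, as times the mean of the pair of arms in the balanced map, on a log axis, against the number of the window counted from the partner arm's telomere, for the pooled libraries of 4 conditions. The first window is the highest in every panel, for example 2.09 in pooled untreated cells and 4.27 in pooled mock for the end of 2L along 3R.

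Contacts among ends were far rarer than contacts of an end with its own homolog. At separations of 100 kb–1 Mb the *thom* contact frequency of the ends was 33.6 ± 2.79 times (SD, n = 8 libraries) that between the ends of 2L and 3L, 28.1 ± 3.55 times that between 2L and 3R, and 20.5 ± 3.16 times that between 3L and 3R. The lowest of these ratios were those of mock for all 3 pairs of ends, 31.0 ± 0.829, 23.3 ± 1.70 and 17.1 ± 2.05.

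Parental origin was examined next, by asking whether ends of the same origin met more often than ends of different origin, each relative to the mean of the arms for the same combination. In pooled untreated cells the maternal ends of 2L and 3L met at 1.33 times the mean by area, the paternal ends at 1.32, and the mixed combinations both at 1.32 (359, 358, 359 and 355 pairs). In mock the same origin gave 2.00 (95% Poisson interval 1.79 to 2.22, for counting error only) and different origin 1.58 (1.40 to 1.78). Over the 8 libraries the log2 difference between same and different origin was 0.12 for 2L with 3L (95% interval −0.02 to 0.26, higher in 6 of 8, exact sign-flip p = 0.102, adjusted p = 0.305).

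For 2L with 3R the difference was −0.0064 (95% interval −0.12 to 0.11, higher in 4 of 8 libraries, exact p = 0.922). For 3L with 3R, where ends of the same origin lie on the same chromosome except in cells with the maternal disomy of 3R, it was 0.0048 (95% interval −0.10 to 0.11, 5 of 8, exact p = 0.945). No pair of ends passed the threshold, and differences of up to about the bounds of these intervals were not detectable at this depth. At 3R the larger number of maternal sides is in both the block and the mean of the arms.

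The change of end contacts between conditions was tested with limma over 3375 blocks of 1 Mb by 1 Mb that join the arms. From untreated cells to mock 3 of 3 end blocks rose, by 0.44 ± 0.08 (SE) on the log2 scale for 2L with 3L (adjusted p = 0.0047), 0.69 ± 0.06 for 2L with 3R (adjusted p = 0.000438) and 0.79 ± 0.07 for 3L with 3R (adjusted p = 0.000438). They ranked 84, 37 and 32 of 3375 from the highest. Of all blocks 19.6% were called in this comparison in either direction and 7.85% as higher. Without untreated replicate 1, the block of 2L with 3L had 0.37 (adjusted p = 0.0577). In 400 kb blocks the changes were 1.77, 1.34 and 1.05 and none passed (adjusted p = 0.188, 0.0531 and 0.188). Untreated and mock libraries differ in depth and sequencing lane as well as in transfection, and these cannot be told apart.

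In Slmb RNAi the end blocks had values of −0.11 ± 0.14 (2L with 3L), −0.33 ± 0.16 (2L with 3R) and −0.38 ± 0.12 (3L with 3R) against mock. None was called by limma (adjusted p = 0.861, 0.572 and 0.283, with 1 of 3 at an unadjusted p under 0.05), beside 2 of 3375 blocks, 0.0593%, called in all. This rests on the spread of the Top2 RNAi libraries, which share the fit. With mock and Slmb RNAi alone the values for 2L with 3R and 3L with 3R passed (adjusted p = 0.0105 and 0.00241). The share of all blocks that passed in that fit is not given here. Fits without 1 Top2 RNAi replicate leave that group no spread of its own, so they repeat that fit and add no further support.

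In Top2 RNAi the blocks had 0.16 ± 0.14, 0.02 ± 0.16 and 0.11 ± 0.12 against mock, and limma called 0 of 3, and 0 of 3375 in all (0%), with 0 of 3 and 117 of 3375 at an unadjusted p under 0.05. The 95% interval for 2L with 3R ran from −0.33 to 0.36. The 2 Top2 RNAi replicates went apart. Without replicate 1, 2L with 3L had 0.45 and 2L with 3R 0.38, and without replicate 2 they had −0.14 and −0.34.

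One pair of contact loops had an anchor in an end. These loops, chosen from earlier results on these data for their strength, join the 8 kb at 0.92 Mb of 2L with loci at 2.67 and 2.61 Mb. In a square of 40 kb around the first, untreated cells had 394 and 413 *thom* pairs and 391 and 374 *cis* pairs, where the mean at that separation would give 7.57 and 8.01 in replicate 1. The *thom*/*cis* ratio of the first loop was 1.01 and 1.10 in untreated cells, 1.04 and 1.28 in mock, 0.912 and 1.06 in Slmb RNAi, and 0.770 and 0.817 in Top2 RNAi. Both Top2 RNAi values were the lowest of the 8. At the second loop the ratios were 1.04 and 1.04, 0.991 and 1.16, 1.18 and 0.921, and 0.908 and 1.11, with groups that overlapped. The loop anchored in the 2L end was thus as strong between homologs as within them in untreated cells, by pair counts that had no test.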

How the data were processed

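PnM Hi-C libraries were analysed from deposited lists of unique read pairs, 1 per library. The authors trimmed and aligned the reads (BWA 0.7.15) to a hybrid dm3 genome of both haplotypes, used pairsamtools 0.0.1-dev to form pairs, retained those mapping uniquely to 1 homolog and removed PCR duplicates. Deposited for each side are its position in base pairs, its strand and the aligner's mapping quality score, none of them normalized, and pairs of any score were used. Pairs with a side on X or off the large arms were left out of counts. RNA-seq of the series was not used here.

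Pairs at least 1 kb apart were counted in 1 Mb and 100 kb windows tiled from the telomere. Maps of 4 kb bins were balanced by iterative correction without 2 diagonals and without bins under 10 nonzero pixels or over 5 median absolute deviations below the median. PS used 3 bins to each side, 2 diagonals left out, with at least 50% of pixels unmasked. Log2 ratios with a pseudocount of 0.5 were compared by limma 3.58.1 (lmFit, eBayes with trend) in R 4.3.3 over 938 windows or 3375 blocks, with Benjamini-Hochberg adjustment at 0.05. Both knockdowns and mock shared 1 fit, and mock and untreated cells another. Other values were tested by exact sign-flip permutation over the 8 libraries. Counts and tests ran in Python 3.11.15 with pandas 2.3.3, numpy 2.4.6 and scipy 1.17.1, balancing with numba 0.67.0, the Gaussian fit with scikit-learn 1.9.0, and plots with matplotlib 3.10.9. Tested on simulated data for Top2 RNAi against mock, limma recovered 100% of log2 changes of 1 in both directions and 86% and 82% of −0.5 and 0.5 among 938 windows, and 98% of both among 3375 blocks. The simulation gave libraries only a small spread beyond counting error, and its changed features were drawn from those with more pairs. These shares may therefore overstate what could be found at the ends, most of all in their sparse tips.

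Depth ranged from 6179060 to 23313206 autosomal pairs per library, and intervals on counts cover counting error only. The ends, the lists and the tests were chosen with earlier results of these data known. Named features were the 3 ends, their outermost 100 kb window, the blocks joining ends at 4 lengths, the window with the largest absolute change per end and comparison, the bins with the lowest and highest PS and the longest run under the threshold per end, and the loops anchored in an end. Replicate numbers of different conditions did not pair the libraries, since the correlations of replicate differences between conditions lay between −0.26 and 0.18 over windows and between −0.09 and 0.12 over blocks. Identical pairs shared by 2 libraries made up 1.86 to 2.24% within a condition and 1.84 to 3.47% between conditions, so that no replicate was a second copy of another. Alternatives were the strand and mapping quality of pairs, the denominator, the extent of the end and of the rest of the arm, block and window length, the expected number of contacts, pseudocount, filters, scaling, samples in the fit, the replicate block, PS settings and leaving out each library.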

Additional observations from a re-analysis of the deposited data

How the results depend on the processing

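Of 602 values under alternatives, 55 changed sign, and 53 of these were called neither before nor after. The difference of an end from the rest of its arm, never called, changed sign at 2L with same-strand pairs (100 kb–1 Mb, −0.0068), mapping quality of at least 30 (1–10 kb, −0.077), without the outermost 100 kb (1–10 kb, −0.0075), against the median of the other windows (1–10 kb −0.033, 100 kb–1 Mb −0.018) and without the 3 windows nearest the centromere (1–10 kb −0.013, 100 kb–1 Mb −0.012). At 3L it did so with same-strand pairs (10–100 kb, −0.0022), mapping quality of at least 30 (100 kb–1 Mb, −0.0012) and the median (1–10 kb −0.0024, 10–100 kb −0.032, 100 kb–1 Mb −0.00018), and at 3R for 10–100 kb with mapping quality of at least 30 (0.020) and without the 3 windows (0.0089). Leaving out each library gave −0.0053 to 0.010 and −0.0035 to 0.0096 at 2L (1–10 kb, 100 kb–1 Mb), and −0.0026 to 0.015 and −0.0011 to 0.022 at 3L (10–100 kb, 100 kb–1 Mb). The 2L minus 3L difference was −0.0029 with same-strand pairs, −0.072 with mapping quality of at least 30 (exact permutation, adjusted p = 0.0391), −0.0017 without the outermost 100 kb, and −0.012 to 0.015 with a library left out. The cause was not tested.

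By area, 2L with 3L in the terminal 400 kb had −1.11 and 3L with 3R 0.32. For 2L with 3L the terminal 200 kb gave no value, since 1 library (4 when split by origin) held no pair there. The balanced map and the product of all sides were added after the data were seen. The origin difference of 3L with 3R was −0.045 in the terminal 400 kb, −0.21 with mapping quality of at least 30, −0.029 in the balanced map and −0.16 in its terminal 400 kb, and that of 2L with 3R was 0.011 without the outermost 100 kb, 0.018 balanced and 0.034 in the balanced 400 kb. Leaving out a library gave −0.030 to 0.030 (2L with 3R) and −0.014 to 0.038 (3L with 3R).

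The median PS of the untreated ends of 2L, 3L and 3R was −2.995, −3.12 and −3.64 with all pixels, −0.87, −0.58 and −0.91 with raw counts, −0.27, −0.18 and −0.67 with 6 bins to each side, and −0.29 (3L) and −0.81 (3R) with 2 bins. Single replicates gave −0.22 to −0.20, −0.29 to −0.26 and −0.76 to −0.74.

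End windows called were 1 (Slmb RNAi) and 1 (Top2 RNAi) with 40 kb windows, 1, 1 and 1 (mock against untreated cells) with at least 50 pairs, 1 (Slmb RNAi) with all 8 libraries and 2 (mock against untreated cells) with 200 kb windows, against 0. The counts over all windows are given above for both knockdowns with at least 50 pairs and for Slmb RNAi with all 8 libraries. For the other settings they are not given here, and none of these counts is read as a result about the ends. Outermost windows with a library left out ranged from −0.011 to 0.17 (2L, Slmb RNAi), −0.073 to 0.11 (2L, Top2 RNAi), −0.11 to 0.073 (2L, mock against untreated cells), −0.048 to 1.34 and −0.39 to 0.94 (3L, Slmb RNAi and mock against untreated cells) and −0.027 to 0.060 (3R, mock against untreated cells). The 3L window at 100–200 kb ranged from −0.55 to 1.13 (mock against untreated cells).

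With both groups alone the end blocks of Slmb RNAi were called at −0.33 (2L with 3R) and −0.38 (3L with 3R). In 400 kb blocks Top2 RNAi gave −0.20 (2L with 3L), and mock against untreated cells 1.77, 1.34 and 1.05, no longer called. With all 8 libraries 2L with 3L had 0.44 (adjusted p = 0.0701). With a library left out, 2L with 3L, 2L with 3R and 3L with 3R ranged from −0.14 to 0.45, −0.34 to 0.38 and −0.074 to 0.29 in Top2 RNAi, 2L with 3R and 3L with 3R from −0.45 to −0.22 and −0.41 to −0.34 in Slmb RNAi, and 2L with 3L from 0.35 to 0.53 in mock against untreated cells. Where a group was left with 1 library, its spread was taken from the others.

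A replicate block changed no call. Under it the end blocks of Slmb RNAi had adjusted p = 0.794, 0.19 and 0.0777, those of mock against untreated cells kept 0.44, 0.69 and 0.79, and 0 end windows were called in each comparison. Depth limits the tips, where 3L holds 16 *thom* pairs in its outermost 100 kb in untreated cells.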
